A study of Mus musculus with 3 samples.

Results

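Heat-shock chaperones were examined in single-cell transcriptomes of TILs (tumor-infiltrating lymphocytes) from mouse tumors, as 10 genes out of the 32285 measured: *Hspa1a*, *Hspa1b*, *Hspa8*, *Dnajb1*, *Dnaja1*, *Hsph1*, *Hsp90aa1*, *Hspb1*, *Hspd1* and *Hspe1*. The genes were chosen by name, with an earlier clustering of these cells known in which *Hspa1a* led a cluster of NK cells. The levels of these genes across that grouping of NK cells are therefore given as a description, without a test. All 10 symbols were found in the tables.

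MC38-Ova cells, an ovalbumin-bearing version of a mouse colon adenocarcinoma line, were injected under the skin of wild-type C57BL/6 Kaede mice at 250000 cells per mouse. Kaede is a fluorescent protein whose green form becomes red under violet light. Tumors were photoconverted on day 13 and harvested on day 15, 48 h later, so KG+ cells (Kaede-green) had entered the tumor after photoconversion and KR+ cells (Kaede-red) had been there throughout. All tumors were isotype control treated, and were digested for 40 min at 37 °C before dead cells were removed and Kaede+ CD45+ cells sorted. There were 2 libraries of KG+ cells, labelled as biological replicates (Kaede-green 1 and 2), and 1 library of KR+ cells (Kaede-red). Runs of 3 values follow the order in which these libraries were just named. Whether a library pooled several mice is not given in the sources used here. No cells without the warm digestion were measured, so expression in the intact tumor and expression that arose during preparation cannot be told apart.

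Chaperones bind unfolded proteins and help them to fold. HSP70 proteins, encoded here by *Hspa1a*, *Hspa1b* and *Hspa8*, work in cycles with J-domain partners (*Dnajb1*, *Dnaja1*) and with HSP110 (*Hsph1*), which exchanges their nucleotide, and pass clients to HSP90 (*Hsp90aa1*). Under heat or other proteotoxic stress the transcription factor HSF1 binds heat-shock elements, arrays of alternating GAA and TTC units, and induces *Hspa1a* and *Hspa1b* from a low level, whereas *Hspa8* is made in resting cells. *Hspb1* is a small heat-shock protein that holds unfolded proteins, and *Hspd1* and *Hspe1* encode the barrel and the lid of the mitochondrial chaperonin.

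Sequence before the start sites of 4 genes is shown because these genes carry the results below and differ in the exact runs of heat-shock units found there. Units with a mismatch, or at another spacing, were not counted. Sequences are from RefSeq, read 5′ to 3′ on the gene's strand in build GRCm38.p6, and end at the base before the start site except for *Hspe1*. Capitals mark runs of 2 units (GAANNTTC or TTCNNGAA), and in *Hspe1* 2 overlapping runs of 3 units (TTCNNGAANNTTC and GAANNTTCNNGAA).
Hspa1a, chr17:34972157-34972406, minus strand: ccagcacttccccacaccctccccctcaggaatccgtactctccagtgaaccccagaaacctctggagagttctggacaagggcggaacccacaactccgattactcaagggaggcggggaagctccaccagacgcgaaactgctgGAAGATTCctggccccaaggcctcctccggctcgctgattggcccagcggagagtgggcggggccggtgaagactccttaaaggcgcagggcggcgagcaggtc
Hspa1b, chr17:34959239-34959488, minus strand: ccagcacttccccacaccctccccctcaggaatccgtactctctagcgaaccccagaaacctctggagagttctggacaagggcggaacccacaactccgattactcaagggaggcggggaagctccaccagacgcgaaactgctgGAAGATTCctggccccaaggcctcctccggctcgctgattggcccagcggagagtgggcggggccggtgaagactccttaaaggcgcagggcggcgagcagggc
Hspb1, chr5:135887669-135887918, plus strand: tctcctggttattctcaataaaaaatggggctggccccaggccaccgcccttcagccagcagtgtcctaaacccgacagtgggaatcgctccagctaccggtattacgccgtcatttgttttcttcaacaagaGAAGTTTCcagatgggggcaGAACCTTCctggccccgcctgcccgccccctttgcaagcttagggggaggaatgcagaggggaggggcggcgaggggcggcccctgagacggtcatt
Hspe1, chr1:55088053-55088082, plus strand: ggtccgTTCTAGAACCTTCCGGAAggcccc

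The stretches of *Hspa1a* and *Hspa1b* were the same at 247 of 250 bases, and their pair of units began 104 bases before each start site. In *Hspb1* 2 such pairs lay between 117 and 90 bases before the start site, and the match of *Hspe1* lay between 89 and 72 bases before its own. The *Hspe1* match also began 144 bases before a start site of *Hspd1*, which is read from the other strand there. The window of a further *Hspd1* start site (chr1:55088194-55088493) held 0 runs of 3 units. The match lies inside the annotated *Hspd1* gene, and the annotated genes overlap head to head (*Hspd1* at chr1:55077835-55088243, *Hspe1* at chr1:55088132-55091307). The promoter table covered 8 of the 10 genes, all but *Hspa8* and *Hsp90aa1*, with windows of 250 bases before to 50 bases after the start. A run of 3 units was found in 3 of the 8 (*Hsph1*, *Hspd1* and *Hspe1*) and in 0.603% of all 32851 windows. A run of 2 units was found in 7 of the 8, all but *Dnajb1*, and in 15.1% of all windows. A match is a description of the letters and not a site of binding.

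*Hspa1a* (chr17:34969190-34972156) and *Hspa1b* (chr17:34956436-34959238) are neighbors 9952 bases apart that encode nearly the same protein. Stretches of 91 bases were shared for 49.1% of the *Hspa1a* transcript and 52.0% of the *Hspa1b* transcript, but for 0% within the last 500 bases, which these 3′ end libraries read. How the authors' counting divided reads between the neighbors was not tested, and where cells were classed their UMIs (unique molecules counted) were added.

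After filtering 31943 cells remained, and the libraries as deposited held 87193225, 129438292 and 175848894 UMIs. Gates on raw UMIs of marker genes held 21470 of these cells: 8427 NK cells, 9265 CD8 T cells, 1053 CD4 T cells, 1762 Treg (regulatory T) cells, 617 γδ T cells and 346 B cells. The NK, CD8 T, Treg, γδ T and B gates had the highest summed level of their own marker lists. The CD4 T list, which shares T cell genes with the others, did not set CD4 T cells (2536 to 2953 CPM) apart from Treg (2512 to 3039 CPM) or CD8 T cells (2480 to 2793 CPM). Kaede-red held 9 B cells and was left out for B cells. NK cells were sequenced more deeply in Kaede-red (median 17232 UMIs) than in Kaede-green 1 (6132) or Kaede-green 2 (8168). Pairs of libraries shared 20 to 36 cell barcodes. In B cells, levels of *Gzmb*, *Nkg7* and *Ccl5*, which B cells should lack, were 4.88% to 18.9% of those in NK cells in the Kaede-green libraries, a gauge of free RNA. Fewer molecules per cell and fewer expressing cells cannot be told apart in the summed levels, which are given as UMIs scaled to a common total (CPM). Errors are SD over libraries, with n = 3 (n = 2 for B cells), and intervals are exact 95% intervals that cover counting error only.

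The inducible HSP70 genes stood highest in CD4 T cells and differed between types more than most other members. *Hspa1a* was at 67.2, 121 and 119 CPM in CD4 T cells (mean 102 ± 30.5). It was at 40.0, 70.2 and 53.0 CPM in CD8 T cells (54.4 ± 15.1) and at 48.0, 70.5 and 20.7 CPM in NK cells (46.4 ± 25). CD4 T cells were above every other type in every library, whereas NK and CD8 T cells overlapped. In Kaede-red a single CD4 T cell held 132 of the 191 *Hspa1a* UMIs of its type. The place of CD4 T above CD8 T cells in that library rests on this cell. Treg cells were at 33.2, 47.8 and 20.6 CPM (33.8 ± 13.6), γδ T cells at 28.7, 25.5 and 31.1 CPM (28.4 ± 2.80), and B cells at 8.31 and 47.8 CPM (28.1 ± 27.9). These last types did not differ beyond their spread.

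*Hspa1b* followed a like order, and its correlation with *Hspa1a* over the 17 sums of type and library was 0.83, a description over sums that share libraries and depth. CD4 T cells were at 73.6, 109 and 93.3 CPM (91.9 ± 17.6), NK cells at 71.3, 61.8 and 21.6 CPM (51.6 ± 26.4) and CD8 T cells at 40.7, 49.1 and 43.5 CPM (44.4 ± 4.26). γδ T cells were at 60.8, 39.3 and 26.7 CPM (42.3 ± 17.3), Treg cells at 22.8, 26.1 and 16.3 CPM (21.7 ± 5.01), and B cells at 8.31 and 17.9 CPM (13.1 ± 6.80). Treg cells were below NK, CD8 T, CD4 T and γδ T cells in every library.

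Single cells weighed on these sums. The cell with the most *Hspa1a* and *Hspa1b* UMIs held 59.2% of all such UMIs in CD4 T cells of Kaede-red, 41.2% in Treg cells of Kaede-green 2 and 69.1% in B cells of Kaede-green 2. In NK and CD8 T cells no cell held more than 9.57% in any library.

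**Figure D1:**
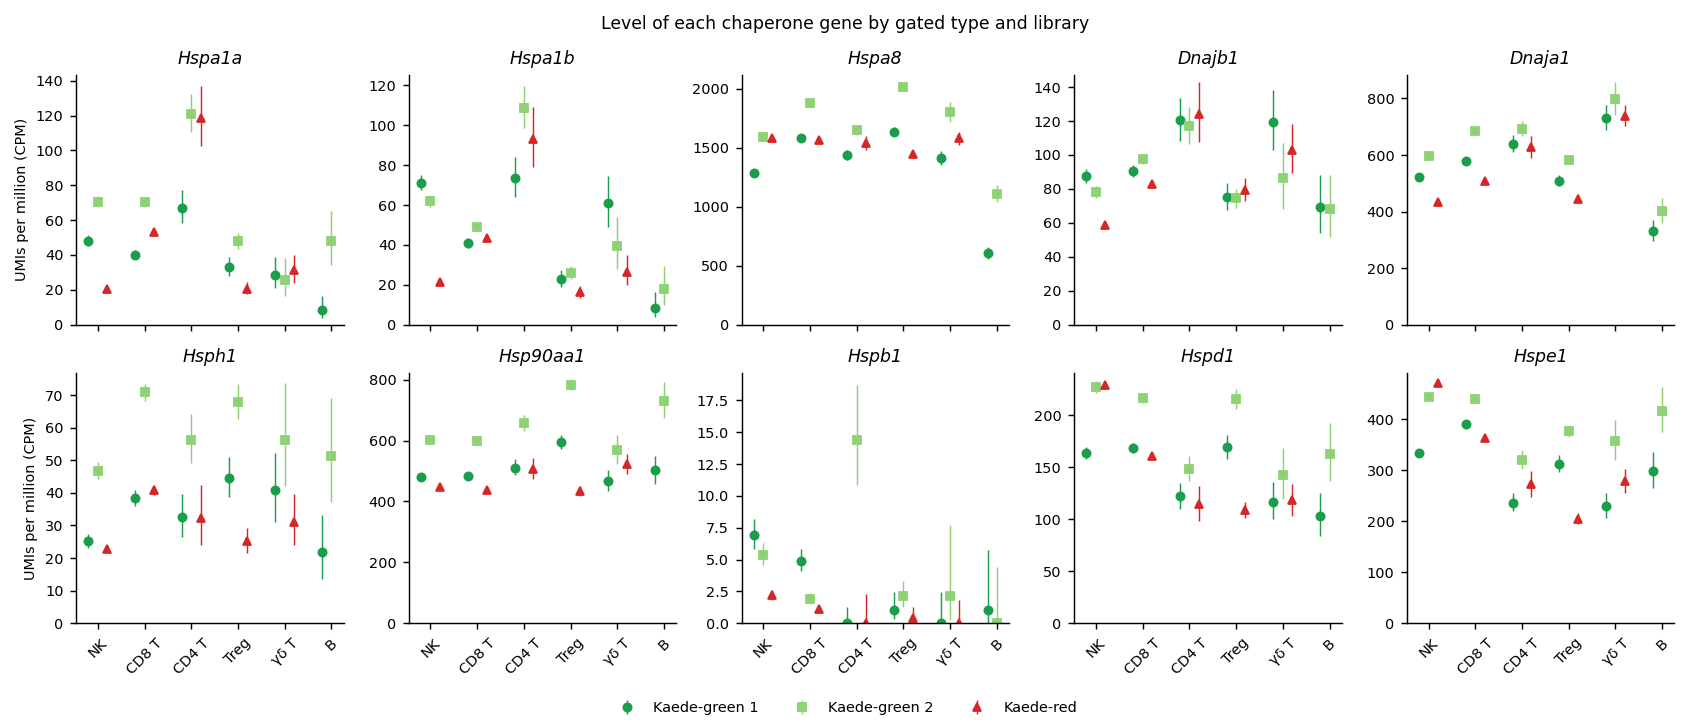
Level of each of the 10 chaperone genes (CPM, y axis, starting at 0) in 6 gated types (x axis) and 3 libraries. Points are summed levels and bars exact 95% Poisson intervals; B cells of Kaede-red (9 cells) are not drawn. *Hspa1a* and *Hspa1b* are highest in CD4 T cells and *Dnaja1* in γδ T cells, and the light green squares of Kaede-green 2 lie highest in most panels.

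*Hspa8*, the HSP70 gene of resting cells, varied little between types other than B cells. Its mean was 1699 ± 292 CPM in Treg cells, 1675 ± 174 in CD8 T cells, 1598 ± 195 in γδ T cells, 1543 ± 103 in CD4 T cells and 1488 ± 173 in NK cells, all within each other's spread. B cells were at 605 and 1110 CPM, below the 5 other types in both libraries.

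The J-domain partners were lowest in B cells and high in CD4 T and γδ T cells. *Dnajb1*, which activates the HSP70 cycle in disaggregation and refolding, was at 120, 117 and 124 CPM in CD4 T cells (121 ± 3.79) and above NK, CD8 T, Treg and γδ T cells in every library. It was at 119.6, 86.1 and 103 CPM in γδ T cells, at 90.5, 97.5 and 82.7 CPM in CD8 T cells, and at 87.6, 78.1 and 58.9 CPM in NK cells. Treg cells (76.3 ± 2.69) and B cells (68.8 ± 1.02) were within the spread of NK cells. *Dnaja1*, another J-domain partner of the cytosol, was at 732, 797 and 738 CPM in γδ T cells (756 ± 36.0), higher than every other type in every library. It was at 653 ± 34.5 CPM in CD4 T cells, 591 ± 90.1 in CD8 T cells, 518 ± 81.9 in NK cells, 512 ± 69.1 in Treg cells and 367 ± 49.0 in B cells.

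*Hsph1* moved with the library more than with the type. In CD8 T cells it was at 38.5, 70.8 and 41.0 CPM (50.1 ± 18.0), in Treg cells at 44.5, 67.8 and 25.1 CPM (45.8 ± 21.4), and in NK cells at 25.1, 46.8 and 22.9 CPM (31.6 ± 13.2). Kaede-green 2 was the highest library in each of these types, and NK cells were below CD8 T, CD4 T, Treg and γδ T cells within every library. γδ T cells (42.7 ± 12.7), CD4 T cells (40.4 ± 13.8) and B cells (36.6 ± 20.9) lay between these types. *Hsp90aa1*, the inducible cytosolic HSP90, had means from 506 ± 83.8 CPM in CD8 T cells to 617 ± 162 in B cells. The spreads of all types overlapped. The mean of B cells leaves out Kaede-red, and B cells were below Treg cells in both Kaede-green libraries.

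*Hspb1* was near zero outside a few cells. It was at 6.90, 5.38 and 2.20 CPM in NK cells (4.83 ± 2.40), at 4.90, 1.88 and 1.14 CPM in CD8 T cells (2.64 ± 1.99) and at 1.06, 2.14 and 0.428 CPM in Treg cells (1.21 ± 0.866). In CD4 T cells it was at 0, 14.4 and 0 CPM, in γδ T cells at 0, 2.13 and 0 CPM, and in B cells at 1.04 and 0 CPM. NK cells were above CD8 T, Treg and γδ T cells in every library.

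The mitochondrial chaperonin genes were highest in NK and CD8 T cells. *Hspd1* was at 163, 227 and 229 CPM in NK cells (206 ± 37.2), at 168, 216 and 161 CPM in CD8 T cells (182 ± 29.8) and at 169, 215 and 108 CPM in Treg cells (164 ± 53.5). B cells (133 ± 42.2), CD4 T cells (128 ± 17.9) and γδ T cells (126 ± 14.5) were lower than NK cells in every library. *Hspe1* was at 333, 444 and 471 CPM in NK cells (416 ± 72.9), at 390, 440 and 363 CPM in CD8 T cells (398 ± 39.0) and at 358 ± 83.5 CPM in B cells. Treg cells (298 ± 87.1), γδ T cells (289 ± 64.9) and CD4 T cells (277 ± 42.2) were lower than NK and CD8 T cells in every library. *Hspd1* and *Hspe1* had a correlation of 0.87 over the 17 sums, whereas that of *Dnajb1* was −0.46 with *Hspd1* and −0.54 with *Hspe1*.

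Libraries differed as much as types for several members. Kaede-green 2 had the highest mean of the 3 libraries for 9 of the 10 members, all but *Dnajb1*. For *Hspb1* this included 1 CD4 T cell with 55 of the 56 UMIs of that type. In NK and CD8 T cells *Hspb1* was higher in Kaede-green 1 (6.90 against 5.38 and 4.90 against 1.88 CPM), and in Treg and γδ T cells in Kaede-green 2. Among the 9 members with a mean of at least 10 CPM, it was above Kaede-green 1 for 7 in NK cells (50.3% of all genes at that level were), 9 in CD8 T cells (61.1%), 8 in CD4 T cells (56.0%), 8 in Treg cells (47.2%), 6 in γδ T cells (48.4%) and 8 in B cells (52.1%). The median log2 ratio of Kaede-green 2 over Kaede-green 1 for these members was between 0.27 and 0.66 by type, and for all genes between −0.01 and 0.04. These are replicates of 1 condition, so the ratio is a measure of their spread. Markers of other cell types and free RNA were higher in Kaede-green 2 too: in its NK gate the macrophage genes *C1qa* and *C1qb* were at 20.5 and 23.2 CPM (0.856 each in Kaede-green 1), and the basophil and mast cell genes *Mcpt8* and *Cpa3* at 11.7 and 8.62 CPM (0 and 0.101). The 6 myeloid markers summed to their highest level in that library in every type, up to 101 CPM in NK cells. Their part in the members' levels was not tested.

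Differences between types were tested with the library as a block in edgeR's quasi-likelihood test over 11609 genes. Called genes had a Benjamini-Hochberg adjusted p under 0.05. Types differed for 8 of the 10 members, as they did for 68.7% of all genes, and *Hsp90aa1* (adjusted p = 0.690) and *Hspb1* (0.0692) did not pass. Without Kaede-green 1 the calls of *Hsph1* (adjusted p = 0.0773) and *Hspa8* (0.0882) were lost, and without Kaede-green 2 that of *Hsph1* (0.127). *Hsp90aa1* was called without Kaede-red (0.0141). *Hspb1* was called without Kaede-green 2, where CD4 T and γδ T cells held 0 UMIs of it, so that call is a description. The NK against other type folds below are log2 values of the fit. Its scaling raised folds against CD4 T, Treg and γδ T cells by 0.15, 0.16 and 0.14 relative to total UMIs.

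Between NK and CD8 T cells, members were called about as seldom as all genes. None of the members was higher in NK cells (12.8% of all genes were) and 1 was lower (13.4% of all genes were). That gene was *Hsph1* (−0.64, SE 0.14, adjusted p = 0.00253), lower in NK cells in 3 of 3 libraries, and the call was lost without Kaede-green 2 (−0.68, adjusted p = 0.0634). The members' median was −0.03 and that of all genes 0.01. These values average over libraries that differed: *Hspa1b* was at 71.3 CPM in NK against 40.7 CPM in CD8 T cells of Kaede-green 1, but at 21.6 against 43.5 CPM in Kaede-red. Of simulated 2-fold changes 58.6% were recovered in this comparison. Without Kaede-red, *Hspa1b* was higher in NK cells (0.58, adjusted p = 0.00461).

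Against CD4 T cells, 5 of the 10 members were called. *Hspd1* (0.86, SE 0.18, adjusted p = 0.00141) and *Hspe1* (0.76, SE 0.17, adjusted p = 0.00286) were higher, 2 of 10 against 16.7% of all genes. *Dnajb1* (−0.54, SE 0.11, adjusted p = 0.00151), *Hspa1a* (−1.05, SE 0.30, adjusted p = 0.0134) and *Hspa1b* (−0.78, SE 0.27, adjusted p = 0.0336) were lower, 3 of 10 against 16.9%, while *Hsph1* (−0.21) and *Hsp90aa1* (0.03) did not pass. All 5 had their direction in 3 of 3 libraries. Without the strongest cell of each sum the calls of *Hspa1a* (−0.46, adjusted p = 0.261) and *Hspa1b* (−0.45, adjusted p = 0.237) were lost, and that of *Hspa1b* also without Kaede-green 2 (−0.84, adjusted p = 0.163) or Kaede-red (−0.37, adjusted p = 0.0900), without the cells of highest Scrublet doublet score (−0.81, adjusted p = 0.0996) and with all deposited cells (−0.79, adjusted p = 0.0603). Leaving out the strongest cells was added after the data were seen. Without Kaede-green 2, whose CD4 T cells held the *Hspb1*-rich cell, CD4 T cells were at 0 for *Hspb1*. It passed the filter through other types, so its call as higher in NK cells there is a description.

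Against Treg cells, 4 members were higher in NK cells (19.5% of all genes were) and none was lower (22.1% were). *Hspa1b* was higher by 1.31 (SE 0.27, adjusted p = 0.00117), *Hspe1* by 0.66 (SE 0.17, adjusted p = 0.00540) and *Hspb1* by 2.13 (SE 0.77, adjusted p = 0.0354), each in 3 of 3 libraries. *Hspd1* (0.53, SE 0.17, adjusted p = 0.0214) was higher in 2 of 3 libraries and fell to 0.12 (adjusted p = 0.246) without Kaede-red. The call of *Hspb1* was lost without Kaede-green 1 (1.81, adjusted p = 0.0822) or Kaede-red (1.88, adjusted p = 0.0702). Without Kaede-red, *Hspa1a* was higher in NK cells (0.67, adjusted p = 0.00300), and *Hsph1* (−0.55, adjusted p = 0.000380) and *Hsp90aa1* (−0.24, adjusted p = 0.0213) were lower.

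Against γδ T cells, *Hspd1* (0.86, SE 0.18, adjusted p = 0.00171) and *Hspe1* (0.69, SE 0.17, adjusted p = 0.00616) were higher in NK cells, 2 of 10 against 16.8% of all genes. *Dnaja1* (−0.43, SE 0.08, adjusted p = 0.000973) and *Dnajb1* (−0.35, SE 0.12, adjusted p = 0.0310) were lower, 2 of 10 against 16.9%, in 3 of 3 libraries each. Leaving out any 1 library ended the call of *Dnajb1*, with values from −0.46 to −0.27, and leaving out Kaede-green 1 that of *Dnaja1* (−0.40, adjusted p = 0.0591). *Hspa1a* was called higher in NK cells without Kaede-red (1.11, adjusted p = 0.00568). *Hspb1* was called higher without Kaede-green 2, but over γδ T cells at 0, so that call is a description.

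Against B cells, *Dnaja1* (0.64, SE 0.10, adjusted p = 0.000132), *Hspa8* (0.94, SE 0.16, adjusted p = 0.000257), *Hspa1b* (2.16, SE 0.51, adjusted p = 0.00416) and *Hspd1* (0.82, SE 0.22, adjusted p = 0.00994) were higher in NK cells in 2 of 2 libraries, 4 of 10 against 16.8% of all genes. None was lower (14.4% of all genes were). Without Kaede-green 1 the calls of *Hspa1b* (1.53, adjusted p = 0.0815) and *Hspd1* (0.86, adjusted p = 0.118) were lost, and without Kaede-green 2 that of *Hspd1* (1.07, adjusted p = 0.0699). Without Kaede-red, which holds no B cell sum but enters the fit, *Hspa1a* was higher in NK cells (1.18, adjusted p = 0.00689).

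The other chaperone systems were read from fixed lists in the same fit. Of 16 ER chaperone genes, which serve proteins of the secretory pathway, 12 were higher in NK than in CD8 T cells and 0 lower (12.8% and 13.4% of all genes were). Against CD4 T cells 14 were higher and 1 lower (16.7% and 16.9%), against Treg cells 7 and 0 (19.5% and 22.1%), against B cells 12 and 1 (16.8% and 14.4%), and against γδ T cells 0 and 2 (16.8% and 16.9%). *Hyou1*, an ER relative of HSP110, was higher in NK cells by 0.85 against CD8 T, 1.13 against CD4 T and 1.14 against Treg cells. Of the 8 subunits of the cytosolic chaperonin TRiC, 6 were higher in NK than in CD4 T cells (16.7% of all genes were) and 7 than in γδ T cells (16.8%). Against Treg cells 1 was higher (19.5%) and against B cells 2 (16.8%). In these comparisons 0 were lower, and 0 were called against CD8 T cells. Of the 18 immediate early genes, 12 were lower in NK than in γδ T cells and 2 higher, 8 were lower than in B cells and 3 higher, 5 were lower than in CD4 T cells and 2 higher, and 2 were lower than in CD8 T cells and 5 higher. Against Treg cells 9 were higher in NK cells and 0 lower. The shares of all genes in each comparison are those given with the ER genes. *Hsf1* itself was at 12.5 to 14 CPM in NK cells and 14.5 to 14.9 CPM in CD8 T cells, and *Hsf2* was lower in NK than in Treg cells (−1.72, SE 0.17, adjusted p = 5.63e-07).

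Among all 11592 other genes that passed the filter, those whose levels over the 17 sums were most like the members' mean were *Ndufa3* and *B3gat2* (r = 0.80 each), *4932422M17Rik* and *Fyn* (0.77 each), *Ap1g1* (0.76), *Tma7* and *Cacybp* (0.75 each), *Baiap3* (0.74), and *Rpl27* and *Me2* (0.73 each). *Cacybp* is on the list of cytosolic co-chaperones.

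The inducible HSP70 genes were uneven from cell to cell. After each cell was thinned to 2000 UMIs, the variance of *Hspa1a* in NK cells was 11.9 times its mean, against 1.79 times for *Hspa8*. The values were 10.1 and 1.62 in CD8 T cells, 17.0 and 1.88 in CD4 T cells and 9.48 and 1.87 in Treg cells. The ratio for *Hspa1a* was 3.32 in γδ T cells (against 1.86 for *Hspa8*) and 8.42 in B cells (against 1.90). For *Hspa1b* it was 9.11 in NK, 6.20 in CD8 T, 9.63 in CD4 T, 4.20 in Treg, 10.5 in γδ T and 2.32 in B cells. Single cells weighed on the small types, with up to 24 *Hspa1b* UMIs in 1 γδ T cell and 12 *Hspa1a* UMIs in 1 B cell. A difference of these ratios between types was not tested. The top 1% of cells held 77.7% of the *Hspa1a* UMIs in NK cells and 72.4% in CD8 T cells, against 4.27% and 3.75% of the *Hspa8* UMIs.

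Cells were called Hspa1-high when they held at least 1 UMI of *Hspa1a* or *Hspa1b* among the 2000 (1059 of 21466 cells, 4.93%) and Hspa1-zero otherwise. The share was 4.39%, 6.13% and 3.56% in NK cells (mean 4.70% ± 1.31). It was 4.69%, 6.1% and 4.46% in CD8 T cells (5.09% ± 0.886) and 6.59%, 8.99% and 6.22% in CD4 T cells (7.26% ± 1.5). CD4 T cells were above NK and CD8 T cells in every library, but their counting intervals (4.38% to 9.44%, 6.47% to 12.1% and 3.35% to 10.4%) overlapped those of NK cells (3.64% to 5.25%, 5.25% to 7.11% and 2.94% to 4.27%) in all 3. With another random thinning CD4 T cells of Kaede-red were at 4.31%, below CD8 T cells at 4.54%. Shares were 2.93%, 5.34% and 4.04% in Treg cells (4.10% ± 1.20), 4.52%, 3.94% and 8.18% in γδ T cells (5.55% ± 2.30), and 1.46% and 3.82% in B cells (2.64% ± 1.67). These shares were not tested between types. A two-sided exact permutation test of a pair of types over 3 libraries cannot give a p under 0.25. Unthinned, 7.05% to 14.8% of NK cells and 3.40% to 7.63% of B cells held a UMI. None of these types is known to lack the genes, so the share that free RNA gives was not measured for them.

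A stricter class, with at least 5 UMIs of the 2000, held 119 of 8426 NK cells (1.41%, interval 1.17% to 1.69%) and 118 of 9263 CD8 T cells (1.27%, 1.06% to 1.52%). It held 20 of 1053 CD4 T cells (1.90%, 1.16% to 2.92%), 10 of 1761 Treg cells (0.568%, 0.273% to 1.04%), 6 of 617 γδ T cells (0.972%, 0.358% to 2.10%) and 1 of 346 B cells (0.289%, 0.00732% to 1.60%). These intervals pool the cells of all libraries and cover counting error only, so they are no test of a difference between types. Over libraries the mean share was 0.685% ± 0.566 in Treg, 1.45% ± 0.479 in NK, 1.27% ± 0.0483 in CD8 T and 1.82% ± 0.380 in CD4 T cells. By library the Treg share was 1.33%, 0.433% and 0.289%, and the first of these lay between the shares of CD8 T (1.25%) and NK cells (1.58%) in the same library. These cells held 79.4% of all *Hspa1a* and *Hspa1b* UMIs in NK cells, 71.7% in CD8 T cells, 82.4% in CD4 T cells and 59.5% in Treg cells.

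**Figure D2:**
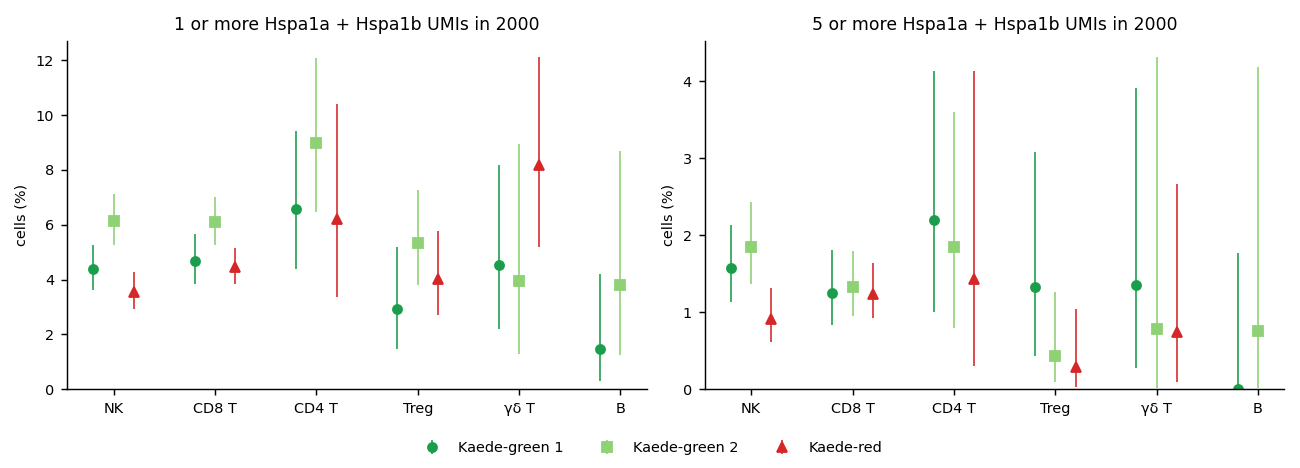
Share of cells (percent, y axis) with at least 1 (left) or at least 5 (right) UMIs of *Hspa1a* and *Hspa1b* together after thinning to 2000 UMIs, by type (x axis) and library, with exact 95% binomial intervals. CD4 T cells are highest in both Kaede-green libraries on the left, and on the right CD8 T cells lie between 1.24% and 1.33% in all 3 libraries; B cells of Kaede-red are not drawn.

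In CD8 T cells the rest of the chaperone set was higher in the Hspa1-high cells. All 8 other members were called higher by edgeR's quasi-likelihood test on the thinned sums, with *Hspa1a* and *Hspa1b* taken out of the test and of the totals, against 0.335% of 8949 genes. *Hspb1* was at 110, 37.2 and 28.4 CPM in high cells and at 0.469, 0.518 and 0.265 CPM in zero cells (log2 fold 6.85, SE 0.48, adjusted p = 1.37e-12). *Dnajb1* was at 324, 463 and 429 CPM against 98.0, 93.8 and 80.8 CPM (2.20, SE 0.13, adjusted p = 1.37e-14). The classes did not overlap for either gene. The counts behind *Hspb1* were low, at 23, 14 and 10 UMIs in high cells against 2, 3 and 2 in zero cells. After thinning, 1 CD8 T cell held 20 *Hspb1* UMIs. *Hspb1* passed the low-count filter through the high class, so its fold and adjusted p are a description.

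*Hsph1* was at 133, 255 and 199 CPM in high CD8 T cells against 30.7, 59.8 and 33.8 CPM (2.28, SE 0.15), and *Hsp90aa1* at 1024, 1285 and 1381 CPM against 444, 517 and 383 CPM (1.48, SE 0.10). *Dnaja1* (0.90, SE 0.09) and *Hspa8* (0.60, SE 0.08) had smaller folds, and so did *Hspd1* (1.03, SE 0.12) and *Hspe1* (0.93, SE 0.11). Every one of the 8 was higher in 3 of 3 libraries. All 8 stayed called when any 1 library was left out, with DESeq2, with another random thinning and with the class of at least 5 UMIs. In CD8 T cells of that stricter class, summed over libraries, *Hsp90aa1* was at 2288 CPM and *Hspb1* at 169 CPM, against 442 and 0.398 CPM in zero cells. High and zero CD8 T cells were alike in depth (median 11294 and 11334 UMIs) and mitochondrial share (2.67% and 2.72%).

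Few genes of the other chaperone lists were called, as was so for all genes (0.335% of 8949 were higher in CD8 T cells). Among CD8 T cells 0 of 8 TRiC, 0 of 16 ER and 0 of 7 mitochondrial quality control genes were called by edgeR, and of 22 cytosolic co-chaperones tested only *Hsp90ab1*, the constitutive HSP90 (0.46, SE 0.08, adjusted p = 0.00203). Of 18 immediate early genes 4 were higher, led by *Jun* (1.64, SE 0.12) and *Fos* (1.26, SE 0.18), both subunits of the AP-1 transcription factor. Outside the lists, *Klf2* (1.66 in CD8 T, 1.28 in CD4 T), *Klf6* (0.90 and 1.06) and *Cd69* (0.88 and 1.05) were higher in both CD8 T and CD4 T cells. Of genes outside the lists 0 were called in all 4 tested types, which left little room for any: only 8 genes were called in Treg and 4 in γδ T cells.

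In CD4 T cells 5 of the 7 members tested were higher in Hspa1-high cells (0.352% of 3121 genes were): *Hsph1* (2.34, SE 0.47, adjusted p = 0.000770), *Dnajb1* (1.89, SE 0.30, adjusted p = 3.23e-06), *Hsp90aa1* (1.54, SE 0.18, adjusted p = 2.45e-10), *Dnaja1* (0.95, SE 0.18, adjusted p = 0.000207) and *Hspa8* (0.78, SE 0.14, adjusted p = 5.31e-05). *Hsp90aa1* was at 1000, 1731 and 1654 CPM in high cells and at 448, 528 and 469 CPM in zero cells. All 5 were higher in 3 of 3 libraries, from 79 high cells in all. *Hsph1* passed the low-count filter through the high class, where it had 15, 11 and 1 UMIs, so its fold and adjusted p are a description. *Hspd1* (0.73, SE 0.39, adjusted p = 0.948) and *Hspe1* (0.53, SE 0.29, adjusted p = 0.95) did not pass. *Hspb1* did not pass the filter on low counts: its level was 218 CPM in high cells of Kaede-green 2 and 0 in the other sums. By DESeq2 2 of the 5 were called, and 2 without Kaede-green 1 and 1 without Kaede-green 2.

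In Treg cells 1 of the 7 members tested was called higher (0.127% of 4738 genes were). *Dnaja1* was at 1318, 1068 and 768 CPM in high cells against 516, 576 and 470 CPM in zero cells (0.87, SE 0.19, adjusted p = 0.00755). The call was not made by DESeq2, without Kaede-green 2 (0.82, adjusted p = 0.946), without Kaede-red (0.92, adjusted p = 0.158) or with another thinning (0.51, adjusted p = 0.822), in which *Hsp90aa1* was called instead (1.11, adjusted p = 0.000159, against 0.76 and 0.0801). *Jun* (1.56, SE 0.27) and *Fos* (1.74, SE 0.33) were higher in Treg cells too. In γδ T cells, where only Kaede-green 1 and Kaede-red held enough high cells, 1 of 7 was called (0.0560% of 3569 genes were). *Hsph1* was at 400 and 182 CPM against 45 and 32.4 CPM (2.61, SE 0.62, adjusted p = 0.0251), and the call was not made by DESeq2 or with another thinning (2.46, adjusted p = 0.0746). It passed the low-count filter through the high class, with 8 UMIs in each library, so its fold and adjusted p are a description.

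A difference of these folds between types was tested as an interaction, an analysis added after the data were seen. Against CD8 T cells, the fold of Hspa1-high over zero cells was lower in CD4 T cells for 0 of 8 members (0.0574% of 6972 genes were), and 0 were higher. The 95% interval of the difference, from the SE of the fit and a normal approximation, was −0.90 to 0.73 for *Hsph1* and −0.56 to 0.29 for *Hsp90aa1*. In Treg cells it was lower for 1 member (0.0717% of genes were), *Hsph1* (difference −1.93, SE 0.48, adjusted p = 0.0400), with *Hsp90aa1* at −0.87 (SE 0.23, adjusted p = 0.0889) and *Dnajb1* at −1.31 (SE 0.37, adjusted p = 0.186). The *Hsph1* counts behind this were low, at 2, 8 and 0 UMIs in 11, 37 and 28 high Treg cells. In γδ T cells it was lower for 1 member (0.143% of genes were), *Hsp90aa1* (difference −1.19, SE 0.29, adjusted p = 0.0384). In Kaede-green 1 *Hsp90aa1* was at 1400 CPM in high against 464 CPM in zero γδ T cells (CD8 T cells 1024 against 444). In Kaede-red it was at 568 against 565 CPM (CD8 T cells 1381 against 383), on 25 UMIs in 22 high γδ T cells. The lower γδ T fold was thus in Kaede-red only. The interaction was not run under the alternatives. The Hspa1-high Treg cells held less of the genes that class them, 950 CPM of *Hspa1a* and 784 of *Hspa1b* as means over libraries against 1186 and 978 in CD8 T cells, and the part of this in the difference was not tested.

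In NK cells, the cells in which the genes were chosen, the same comparison is a description. *Hspb1* was at 74.6, 61.3 and 26.5 CPM in high cells against 0.605, 2.80 and 0.327 CPM in zero cells, and *Hsp90aa1* at 1504, 1678 and 1009 CPM against 412, 517 and 436 CPM. *Dnajb1* was at 355, 322 and 252 CPM against 87.7, 72.3 and 60.5 CPM, and *Hsph1* at 123, 224 and 133 CPM against 16.9, 36.7 and 19.3 CPM. The log2 folds were 5.34, 1.58, 2.05 and 2.68 for these 4 genes, 1.15 for *Dnaja1*, 0.97 for *Hspe1*, 0.86 for *Hspd1* and 0.67 for *Hspa8*. In Kaede-red the high NK cells held less *Hspa1a* (823 CPM, against 1281 and 1393) and less *Hspa1b* (912 CPM, against 1803 and 1353) than in the Kaede-green libraries.

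**Figure D3:**
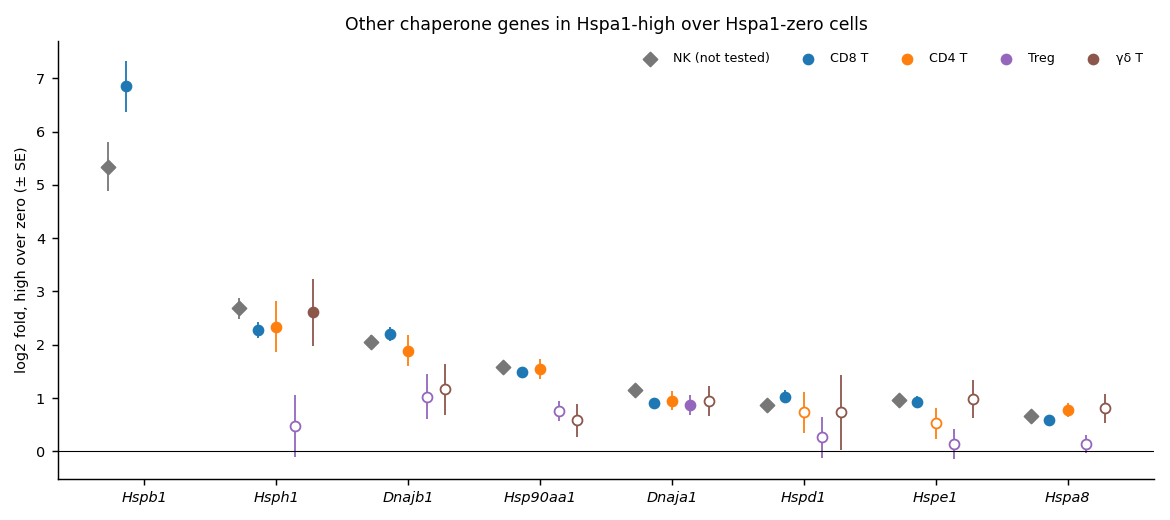
Log2 fold of Hspa1-high over Hspa1-zero cells (y axis, ± SE of the fit) for the 8 other chaperone genes (x axis) in NK cells (diamonds, not tested), CD8 T, CD4 T, Treg and γδ T cells, with filled circles for called genes. In CD8 T cells all 8 circles are filled, from 0.60 for *Hspa8* to 6.85 for *Hspb1*, and most Treg and γδ T circles are open. *Hspb1* was tested in CD8 T cells only, where its fold rests on few UMIs. *Hspb1* in CD8 T cells and *Hsph1* in CD4 T and γδ T cells passed the low-count filter through the high class and are a description.

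Cycling cells, taken as cells with a UMI of *Mki67*, were compared with the others of their type to ask how the members go with the cell cycle. *Mki67*-positive NK cells had more *Hspd1* and less *Hspa1a*, *Hspa1b* and *Dnajb1*, and none of these calls was made at matched depth. *Hspd1* was at 263, 285 and 257 CPM in *Mki67*-positive NK cells and at 155, 215 and 216 CPM in negative ones (log2 fold 0.42, SE 0.11, adjusted p = 0.0148), 1 of 10 members higher against 11.1% of all genes. *Hspa1b* was at 10.2, 32.2 and 13.5 CPM against 76.5, 67.5 and 25.5 CPM (−1.33, SE 0.21, adjusted p = 0.000809), and *Hspa1a* at 19.9, 49.9 and 11.7 CPM against 50.4, 74.5 and 24.9 CPM (−0.97, SE 0.14, adjusted p = 0.000339). *Dnajb1* was lower too (−0.40, SE 0.10, adjusted p = 0.0151), making 3 of 10 against 11.0%, all in 3 of 3 libraries. *Hsph1* (0.04) and *Hsp90aa1* (0.23) did not pass. With cells thinned to 2000 UMIs the folds were 0.16 for *Hspd1* (adjusted p = 0.861), −0.92 for *Hspa1a* (0.241), −0.69 for *Hspa1b* (0.431) and −0.18 for *Dnajb1* (0.906). At full depth the call of *Dnajb1* was lost without Kaede-green 1 (−0.25, adjusted p = 0.0540) or Kaede-green 2 (−0.40, adjusted p = 0.104). Without Kaede-green 1 2 members were called higher, with *Hsp90aa1* (0.33, adjusted p = 0.0115) added. Without Kaede-red 3 were, with *Hspa8* (0.31, adjusted p = 0.00295) and *Hspe1* (0.32, adjusted p = 0.00726) added. *Hspb1* was lower without Kaede-green 1 (−0.79, adjusted p = 0.0330) or Kaede-red (−2.53, adjusted p = 3.71e-06).

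Among CD8 T cells, *Hspd1* (0.42, SE 0.08, adjusted p = 0.00505) and *Hsp90aa1* (0.33, SE 0.06, adjusted p = 0.00400) were higher in cycling cells, 2 of 10 against 17.8% of genes. *Dnaja1* (−0.33, SE 0.06, adjusted p = 0.00491) and *Dnajb1* (−0.26, SE 0.08, adjusted p = 0.0386) were lower, 2 of 10 against 16.0%, and both calls were lost without Kaede-green 2 (*Dnaja1* −0.33, adjusted p = 0.0707; *Dnajb1* −0.17, adjusted p = 0.444). *Dnajb1* was also lost without Kaede-green 1 (−0.24, adjusted p = 0.0777). *Hspa1a* was at 58.2, 51.0 and 56.1 CPM in cycling CD8 T cells and at 34.9, 79.1 and 51.0 CPM in the others, which overlapped. *Hspb1* was at 20, 0.387 and 0.775 CPM against 0.663, 2.57 and 1.39 CPM, and the high value of Kaede-green 1 set its direction: it was lower without that library (−1.56, adjusted p = 0.0186) and higher without Kaede-green 2 (1.99, adjusted p = 0.0413).

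In Treg cells *Hspd1* (0.68, SE 0.09, adjusted p = 3.30e-05), *Hsp90aa1* (0.65, SE 0.06, adjusted p = 1.21e-06), *Hspe1* (0.42, SE 0.09, adjusted p = 0.00279) and *Hspa8* (0.40, SE 0.04, adjusted p = 6.38e-06) were higher in cycling cells, 4 of the 9 members tested against 21.1% of genes. *Dnaja1* was lower (−0.25, SE 0.06, adjusted p = 0.00795), 1 of 9 against 16.3%. All 5 had their direction in 3 of 3 libraries. Without Kaede-green 2, *Hspa1a* (−2.23, adjusted p = 0.000150) and *Hspa1b* (−2.11, adjusted p = 0.00150) were lower as well. All 8 TRiC subunits were higher in cycling Treg cells, led by *Tcp1* (0.89, SE 0.08), against 21.1% of all genes. Of the immediate early genes tested, 12 of 18 were lower in cycling NK cells (11.0% of all genes were), 11 of 18 in cycling CD8 T cells (16.0%) and 14 of 17 in cycling Treg cells (16.3%), and 0 were higher.

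*Mki67*-positive cells were deeper, with a median of 14833, 16370 and 31608 UMIs in NK cells of the 3 libraries against 6062, 7901 and 14495 in negative ones. With cells thinned to 2000 UMIs before the split, 0 members were called in NK cells, 1 in CD8 T and 1 in Treg cells. The CD8 T call was *Dnaja1*, and *Hsp90aa1* (0.20, adjusted p = 0.138) and *Dnajb1* (−0.37, 0.113) did not pass. The Treg call was *Hspa1a*, higher (adjusted p = 0.0286) and not called at full depth. There it was at 4.43, 62.5 and 10.2 CPM in cycling Treg cells against 55.1, 36.6 and 26.1 CPM in the others. A single cell held 226 of the 252 UMIs of cycling Treg cells in Kaede-green 2, and its part in the thinned call was not tested. None of the Treg calls made at full depth remained: *Hspd1* (0.48, 0.331), *Hsp90aa1* (0.39, 0.0794), *Hspa8* (0.18, 0.403), *Dnaja1* (−0.21, 0.531) and *Hspe1* (adjusted p = 0.723). The signs of *Hspd1* in CD8 T cells (−0.03), and of *Hspe1* (−0.20) and *Hspa1a* (1.38) in Treg cells, turned. The part of depth in these differences was not tested further.

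**Figure D4:**
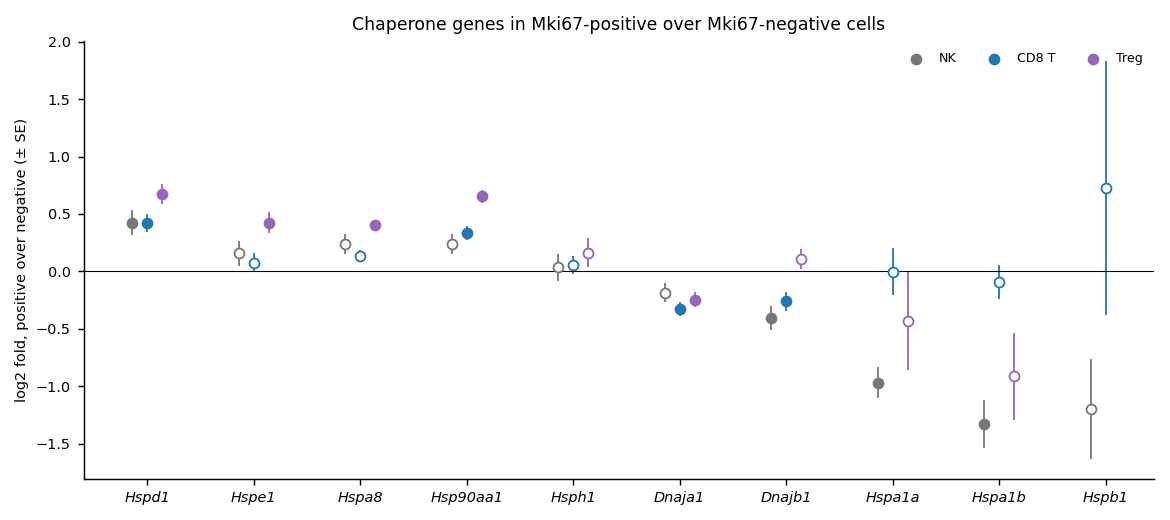
Log2 fold of *Mki67*-positive over *Mki67*-negative cells (y axis, ± SE of the fit) for the 10 chaperone genes (x axis) in NK, CD8 T and Treg cells, with filled circles for called genes. *Hspd1* is above 0 and filled in all 3 types, and *Hspa1a* and *Hspa1b* are filled below 0 in NK cells; *Hspb1* in Treg cells did not pass the filter on low counts.

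KR+ and KG+ cells were compared to ask how the members go with time in the tumor, without a test since there is 1 library of KR+ cells. A member was counted when Kaede-red was at least 1.5-fold above both or below both Kaede-green libraries, among the 9 members with a mean of at least 10 CPM. In NK cells 2 were lower in KR+ cells (17.7% of all genes passed in either direction), *Hspa1a* at 20.7 CPM against 48.0 and 70.5 CPM and *Hspa1b* at 21.6 against 71.3 and 61.8 CPM. The other NK values were within 1.5-fold of at least 1 Kaede-green library.

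In Treg cells 4 were lower in KR+ cells (2.41% of genes passed): *Hspa1a* at 20.6 against 33.2 and 47.8 CPM, *Hsph1* at 25.1 against 44.5 and 67.8 CPM, *Hspd1* at 108 against 169 and 215 CPM, and *Hspe1* at 204 against 313 and 377 CPM. In CD8 T cells 0 of 9 passed (5.83% of genes), in CD4 T cells 0 (7.31%) and in γδ T cells 0 (5.02%). At a fold of 2 no Treg member passed, and among cells of 4000 to 16000 UMIs 1 member passed in NK cells, 2 in Treg cells and 1 in γδ T cells. Without the strongest cell of each sum 1 member passed in CD4 T and 1 in γδ T cells. Depth, which was higher in Kaede-red for NK cells and lower for Treg cells (median 7039 UMIs against 9474 and 10122), moved with the color, and its part was not tested further.

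**Figure D5:**
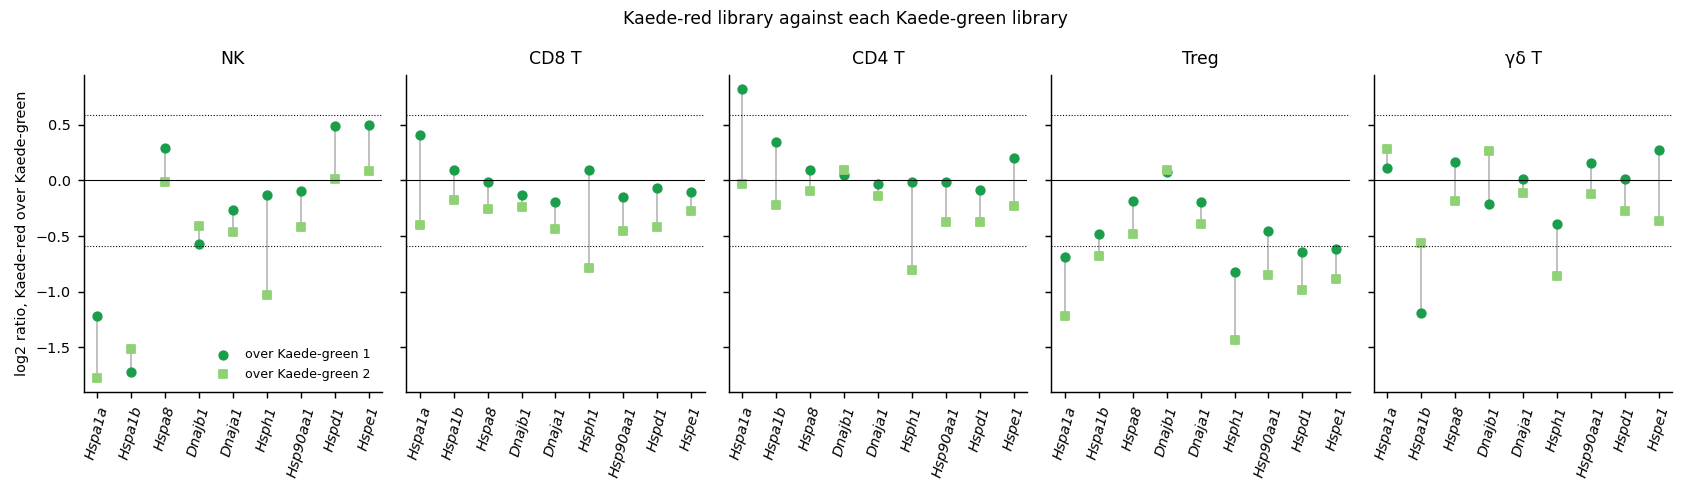
Log2 ratio of the level in Kaede-red over that in each Kaede-green library (y axis) for 9 chaperone genes (x axis) in 5 types; dotted lines mark 1.5-fold either way. In NK cells both points of *Hspa1a* and *Hspa1b* lie below the lower line, in Treg cells both points of *Hspa1a*, *Hsph1*, *Hspd1* and *Hspe1* do, and in CD8 T cells no gene has both points outside.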

How the data were processed

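Single-cell RNA libraries (10x 3′ v3) of TILs were analyzed, 2 of KG+ and 1 of KR+ cells. The authors deposited raw UMI counts per gene and cell, as filtered by Cell Ranger on mm10 (version 6.0.1 in the table headers, 6.1.2 in the submitters' processing notes). The labels name MC38-Ova tumors and a tumor dissociation kit, whereas the paper's text names MC38 and another digestion. The study's cell filter was applied: a cell needed 1000 to 6000 detected genes and a mitochondrial share below 7.5%.

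Gates used raw UMIs: NK, *Ncr1* at least 1 and *Cd3e* at most 1; CD8 T, *Cd3e* at least 2, *Cd8a* and *Cd8b1* at least 1; CD4 T, *Cd3e* at least 2, *Cd4* at least 1, *Foxp3* 0; Treg, *Cd3e* at least 2, *Foxp3* at least 1; γδ T, *Cd3e* and *Cd163l1* at least 1; B, *Cd79a* at least 2. No gate held 9478 cells and several gates held 995, which were left out. No doublet caller was used in the main results.

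UMIs were summed per library and type (at least 20 cells) or class (at least 10 cells) and tested with edgeR 4.0.16 (R 4.3.3), library as block, TMM factors, its low-count filter, Benjamini-Hochberg adjustment and a threshold of 0.05. Blocking takes out differences that all sums of a library share. The p-values set the differences between types or classes against a spread that edgeR estimates with information pooled over genes. With 2 or 3 libraries in a fit, they are not a measure of each gene's own spread from library to library. The libraries are 2 of KG+ and 1 of KR+ cells, not 3 replicates of 1 condition. B cells and the Hspa1-high against zero fit in γδ T cells had 2 libraries. The high class took the lowest UMI number that at most 10% of thinned cells reached, which was 1. In simulated counts, 4-fold changes were recovered at 100% in NK against CD8 T and at 98%, 86% and 90% in Hspa1-high against zero CD8 T, CD4 T and Treg cells, and 2-fold changes at 58.6%, 27%, 21% and 11%. Alternatives included DESeq2 1.42.0. Named genes are the 10 members, up to 3 called genes of each list with the largest fold, and genes most like the members. Genes outside this rule, among them *Hsf1*, *Klf2*, *Klf6*, *Cd69*, *Mt1*, *Mt2*, *Ppp1r15a*, *Lag3*, *Cxcl10*, *Ifit1* and *Ccl4*, were named after their values were seen. The members and lists were chosen with earlier results of these data known. Coordinates are from GENCODE (GRCm38) and sequences from RefSeq. 0 columns were without a sample.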

Additional observations from a re-analysis of the deposited data

Results flagged for a closer look

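Some members had Kaede color ratios of opposite sign in different types, several of them small. As means of the log2 ratios of Kaede-red over each Kaede-green library, *Hspa1a* was −1.49 in NK and −0.953 in Treg cells but 0.2 in γδ T cells. *Dnajb1* was −0.489 in NK and −0.184 in CD8 T cells but 0.0684 in CD4 T and 0.0857 in Treg cells. *Hspd1* was 0.251 in NK cells but −0.243 in CD8 T, −0.233 in CD4 T and −0.814 in Treg cells, and *Hspe1* was 0.293 in NK cells but −0.189 in CD8 T and −0.748 in Treg cells. Both ratios had the stated sign in each case, and with 1 Kaede-red library the difference between types was not tested. In NK cells Kaede-red was above Kaede-green 2 by 0.02 for *Hspd1* and 0.09 for *Hspe1*, less than the gap between the Kaede-green replicates (0.47 and 0.41). The counting intervals of the libraries overlapped for *Dnajb1* in CD4 T and Treg cells. They also did for *Hspa1a* in γδ T cells, on 43, 24 and 63 UMIs.

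The fold of Hspa1-high over zero cells differed between types by the added interaction test for 2 members, *Hsph1* (Treg minus CD8 T −1.93) and *Hsp90aa1* (γδ T minus CD8 T −1.19). The first rests on 2, 8 and 0 *Hsph1* UMIs in high Treg cells. For *Hsp90aa1* the γδ T fold was lower in Kaede-red and not in Kaede-green 1.

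Cells that met none of the 6 gates were not used in the comparisons and held a strong *Hspa1a* and *Hspa1b* signal. In the order of the libraries above, 2.23% (exact interval 1.78% to 2.76%), 2.71% (2.20% to 3.30%) and 1.84% (1.32% to 2.49%) of them had at least 5 such UMIs of 2000. Their *Hspa1a* level was 89.2, 127 and 73.9 CPM, above that of NK cells in each library.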

How the results depend on the processing

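Of 1145 results for single members under an alternative, 1016 stayed on their side of the threshold, 66 lost and 58 gained a call, and 5 reversed. Those 5 were *Hsp90aa1* in NK against Treg cells (0.32, cells of 4000 to 16000 UMIs), and in *Mki67*-positive cells *Hspd1* (−0.034) in CD8 T and *Hspe1* (−0.20) and *Hspa1a* (1.38) in Treg cells, thinned to 2000 UMIs, and *Hspb1* (−1.56) in CD8 T cells without Kaede-green 1 (it was 1.99 without Kaede-green 2). For the rest, the cause was not tested. The following counts of members called moved by more than 1.5 times or to or from 0. With no filter, NK against CD8 T had 1 higher, γδ T 4 higher and 1 lower, and B 7 higher. With no library term, NK against CD8 T had 0 lower, CD4 T 1 lower, Treg 2 higher and γδ T 1 lower. With total UMIs, NK against Treg had 1 lower, Hspa1-high against zero 2 in Treg and 3 in γδ T cells, and *Mki67* 3 higher in NK, 1 lower in CD8 T and 2 lower in Treg cells. With DESeq2, Hspa1-high against zero had 2 in CD4 T, 0 in Treg and 0 in γδ T cells, and *Mki67* 3 higher in NK and 1 lower in CD8 T cells; another seed gave 0 in γδ T cells. With cells of 4000 to 16000 UMIs, NK against CD8 T had 1 higher and γδ T 4 higher and 1 lower, and color 1 in NK, 2 in Treg and 1 in γδ T cells. Without the top Hspa1 cell, an alternative added after the data were seen, NK against CD8 T had 1 higher, CD4 T 1 lower, Treg 1 lower and γδ T 4 higher, and color 1 in CD4 T and 1 in γδ T cells. A color fold of 2 gave 0 in Treg cells. With *Mki67* cells thinned, NK had 0 and 0, CD8 T 0 higher and 1 lower, and Treg 1 higher (*Hspa1a*, not called at full depth) and 0 lower.

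Leaving out 1 library, 6 to 9 members differed between any types, and NK had 0 to 1 members higher and 0 to 1 lower against CD8 T, 2 to 3 and 2 to 3 against CD4 T, 3 to 4 and 0 to 2 against Treg, 2 to 3 and 0 to 1 against γδ T, and 2 to 5 and 0 against B. Hspa1-high against zero had 8 in CD8 T, 1 to 5 in CD4 T and 0 to 1 in Treg cells, and in γδ T cells, whose fit holds Kaede-green 1 and Kaede-red, could not be fitted without either of these. *Mki67* had 1 to 3 higher and 2 to 4 lower in NK, 2 to 3 and 0 to 2 in CD8 T, and 4 and 1 to 3 in Treg cells.

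Shares of Hspa1-high cells with thinning to 4000 UMIs were 6.25% in NK, 7% in CD8 T, 9.69% in CD4 T, 6.09% in Treg, 8.15% in γδ T and 5.04% in B cells, and with at least 5 UMIs 1.45%, 1.27%, 1.82%, 0.685%, 0.963% and 0.382% (means over libraries, added after the data were seen). Cuts at 5% and 20% of cells gave the same class as 10%.

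No paired analysis was possible between colors because Kaede-red is 1 library and its replicate number pairs it with nothing. CD4 T, γδ T and B sums rest on 1053, 617 and 346 cells, and 2-fold changes simulated in Hspa1-high against zero cells were recovered at 21% in CD4 T and 11% in Treg cells.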

Other observations

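Some immediate early genes, which are induced within minutes of many stimuli, were also called higher in Hspa1-high cells. Of those tested, 4 of 18 were in CD8 T cells (0.335% of all genes were) and 2 of 14 in CD4 T cells (0.352%). In Treg cells 2 of 14 were (0.127%) and in γδ T cells 1 of 15 (0.0560%). *Jun* was higher in CD8 T (1.64), CD4 T (2.64) and Treg cells (1.56), and *Fos* in CD8 T (1.26) and Treg cells (1.74). In CD4 T cells *Egr1* was higher by 2.58 (SE 0.29, adjusted p = 4.84e-11). In γδ T cells *Dusp1* was higher by 1.36 (SE 0.32, adjusted p = 0.0251).

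Hspa1-high CD8 T cells also had more of the metallothioneins *Mt1* (0.75, SE 0.12) and *Mt2* (0.95, SE 0.19) and of the stress gene *Ppp1r15a* (0.93, SE 0.15), and less of the inhibitory receptor *Lag3* (−0.49, SE 0.11). These genes were named after their values were seen. In Hspa1-high Treg cells *Cxcl10* (1.49, SE 0.18, adjusted p = 2.54e-09) and *Ifit1* (0.93, SE 0.21, adjusted p = 0.0208), both interferon-induced, were higher by edgeR. *Ccl4* was lower (−2.29, SE 0.30, adjusted p = 1.37e-08), but in Hspa1-high CD8 T cells it was higher (0.92, SE 0.14). The Treg genes were picked from 8 called genes after their values were seen. They rest on 11, 37 and 28 high cells, and how they fare under the alternatives is not given here.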
